A study of Homo sapiens with 11 samples.

Results

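The mitochondrial ribosomal protein genes are the nuclear genes whose symbols start with MRPL (large subunit) or MRPS (small subunit) and a digit. Of the 20500 entries in the deposited table, 77 carried such a symbol. They were 76 protein-coding genes, 47 of the large and 29 of the small subunit, and 1 pseudogene, MRPL42P5. The RNA came from 786-0 cells, an established human renal cell carcinoma line that lacks functional VHL. Of the 11 samples, 5 were kept for 4 h in everolimus dissolved in DMSO, at a dose that the labels write as 10 um, and 6 in the DMSO vehicle alone as controls. Everolimus binds the immunophilin FKBP1A and inhibits mTOR in its complex 1.

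Mitochondria translate the few mRNAs of their own genome, which code for core subunits of the respiratory chain and of ATP synthase. They do so on a ribosome whose RNAs are made inside the organelle and whose proteins are all encoded in the nucleus, made in the cytosol and imported. Many of these proteins have bacterial counterparts and the others are found in mitochondrial ribosomes and not in bacterial ones. Inhibition of mTOR complex 1 is known to lower the translation of mRNAs of many mitochondrial proteins. The values here measure RNA levels and not translation, protein or mTOR activity.

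Expression was measured by sequencing of stranded libraries of polyadenylated RNA. Levels are given in units, the authors' scaled estimated read counts, where the upper quartile of the values above 0 was about 1000 in each library. Library depth was 29760937 to 52522707 estimated reads with everolimus and 14230643 to 36828214 in controls, and 1 read was worth 0.307 to 1.05 units. The libraries fell into 2 sets by the share of low values that were whole numbers of reads: set 1 held everolimus 1 and 2 and controls 1 to 3, and set 2 held everolimus 3 to 5 and controls 4 to 6. The labels name no batch, so the family's counts and medians, and the changes of the members described most closely, are given within the sets as well. The renal marker PAX8 stood at 3668 to 3931 units with everolimus and 3055 to 3285 in controls, while the endothelial marker PECAM1 was at 0 in all 11 libraries and the leukocyte marker PTPRC did not exceed 0.307 units in any. The renal cadherin gene CDH6 stood at 970 to 1390 units with everolimus and 1913 to 2733 in controls, and the epithelial marker EPCAM at 64.8 to 73.0 and 52.1 to 58.6 units. COL1A1, taken as a fibroblast marker, stood at 54.0 to 72.3 units with everolimus and 44.6 to 96.5 in controls. The part of CDH6, EPCAM and COL1A1 in the results was not tested. Nothing in the labels says that the samples of a group were grown separately, so a p-value here reflects the variation among these libraries alone, and that variation may be technical.

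Everolimus was compared with control by limma on log2(value + 1) over 12668 genes, those that reached 10 units in 5 or more of the 11 libraries. All 76 coding members reached that filter and were tested. MRPL42P5 did not, and it is given no test. It stood at 5.57, 2.55, 0.411, 1.997 and 3.65 units with everolimus and at 6.48, 3.01, 7.86, 19.1, 4.34 and 13.1 units in controls. Its everolimus values lay inside or below the range of the controls, near the 0.920 to 3.15 units that 3 reads were worth.

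Promoters came from a RefSeq table of the later build GRCh38.p14, which held windows from 250 bases before to 50 after the transcription start for 67 of the 76 coding members. They were searched on both strands for 6 short motifs bound by factors that are known to regulate housekeeping and mitochondrial genes. AAGATGG, the core of the YY1 motif, stood in 23 of the 67 member windows (34.3%) and in 7.66% of the windows of 8789 tested genes. CCGGAAG, the ETS motif that the factor GABP binds, stood in 28 windows (41.8%), against 19.3% of those of the tested genes. On the strand of the gene and after its start, AAGATGG was found in 16 of 67 members (23.9%) and in 3.91% of the tested genes. These letters contain ATG, and whether they are translation starts was not examined. A match of letters is a description and does not show that a factor binds there.

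Stretches around that AAGATGG are shown for 7 members picked because they differ in their response to everolimus. The capitals mark the motif and each stretch reads 5′ to 3′ on the gene's strand.
MRPL50: atctcatcgAAGATGGcggcgcgatctg
MRPS30: tcgcgggcaAAGATGGcggcggccaggt
MRPS10: gggaccggcAAGATGGcggcgcggacag
MRPS27: gtacgctccAAGATGGctgcctccatag
MRPS24: gcttggcccAAGATGGcggcctccgtgt
MRPS18B: gcgtacgtcAAGATGGcggcgtctgtat
MRPL42: gattgaaacAAGATGGcgggttcgtggt
In GRCh38.p14 these are MRPL50 at chr9:101398577-101398604 on the minus strand, MRPS30 at chr5:44808951-44808978 on the plus strand, MRPS10 at chr6:42217834-42217861 on the minus strand, MRPS27 at chr5:72320206-72320233 on the minus strand, MRPS24 at chr7:43869480-43869507 on the minus strand, MRPS18B at chr6:30617854-30617881 on the plus strand and MRPL42 at chr12:93467513-93467540 on the plus strand. In 8 of the 15 members whose stretch could be read in full within the window, the 4 bases after the motif were cggc, and MRPS27 and MRPL42 are among the 7 where they were not. MRPL50, MRPS30, MRPS10 and MRPS27 were lower with everolimus, MRPS24 was higher, and MRPS18B and MRPL42 did not pass the test.

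The 200 bases before the transcription start are shown for 4 members, the most strongly lowered (MRPL50), the most strongly raised (MRPS24) and a pair that fell and hold the ETS motif (MRPS10, MRPL47). Capitals mark the ETS motif CCGGAAG, the YY1 core AAGATGG, the SP1 motif GGGCGG and the CCAAT box CCAAT, or their reverse complements.
MRPL50: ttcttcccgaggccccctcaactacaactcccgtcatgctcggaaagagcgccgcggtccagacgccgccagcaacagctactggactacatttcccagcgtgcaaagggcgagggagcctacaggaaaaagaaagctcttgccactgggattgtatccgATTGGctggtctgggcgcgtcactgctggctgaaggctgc
MRPL47: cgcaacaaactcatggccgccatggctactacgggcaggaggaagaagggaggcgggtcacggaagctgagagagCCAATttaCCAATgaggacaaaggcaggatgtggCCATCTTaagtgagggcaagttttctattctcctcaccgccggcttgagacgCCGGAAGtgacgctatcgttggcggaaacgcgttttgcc
MRPS10: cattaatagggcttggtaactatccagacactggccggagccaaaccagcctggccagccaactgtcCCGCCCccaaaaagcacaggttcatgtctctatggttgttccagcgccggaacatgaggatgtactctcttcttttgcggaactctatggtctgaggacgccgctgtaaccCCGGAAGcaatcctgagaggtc
MRPS24: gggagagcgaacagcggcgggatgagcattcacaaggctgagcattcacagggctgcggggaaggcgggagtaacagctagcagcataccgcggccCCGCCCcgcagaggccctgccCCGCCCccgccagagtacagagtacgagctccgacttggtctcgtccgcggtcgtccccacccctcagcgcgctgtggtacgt
In GRCh38.p14 these are MRPL50 at chr9:101398619-101398818 on the minus strand, MRPL47 at chr3:179604639-179604838 on the minus strand, MRPS10 at chr6:42217862-42218061 on the minus strand and MRPS24 at chr7:43869518-43869717 on the minus strand. MRPL50 holds a CCAAT box in reverse and no ETS motif in this stretch. MRPL47 holds 2 CCAAT boxes, a YY1 core in reverse and an ETS motif. MRPS10 holds an ETS and an SP1 motif, and MRPS24 holds 2 SP1 motifs in reverse.

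After 4 h with everolimus, more genes of the family were lower than higher, and by small amounts. Of the 76 coding members, 31 were lower (40.8%), 4 were higher (5.26%) and 41 did not pass the test at an adjusted p of 0.05 (limma, Benjamini-Hochberg over all tested genes). Among all tested genes 55.2% passed the test, 27.4% lower and 27.8% higher, and among the 7652 genes whose mean level lay within the range of the members 29.7% were lower and 28.9% were higher. The median log2 fold change was −0.10 over the members and −0.01 over all tested genes, and 61 members (80.3%) had a fitted change below 0, against 51.5% of all tested genes. The changes were small: 5 members fell by at least 20%, and the range over the family was −0.53 to 0.32 on the log2 scale. In bulk RNA, less of a transcript per cell and fewer cells that carry it cannot be told apart.

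**Figure D1:**
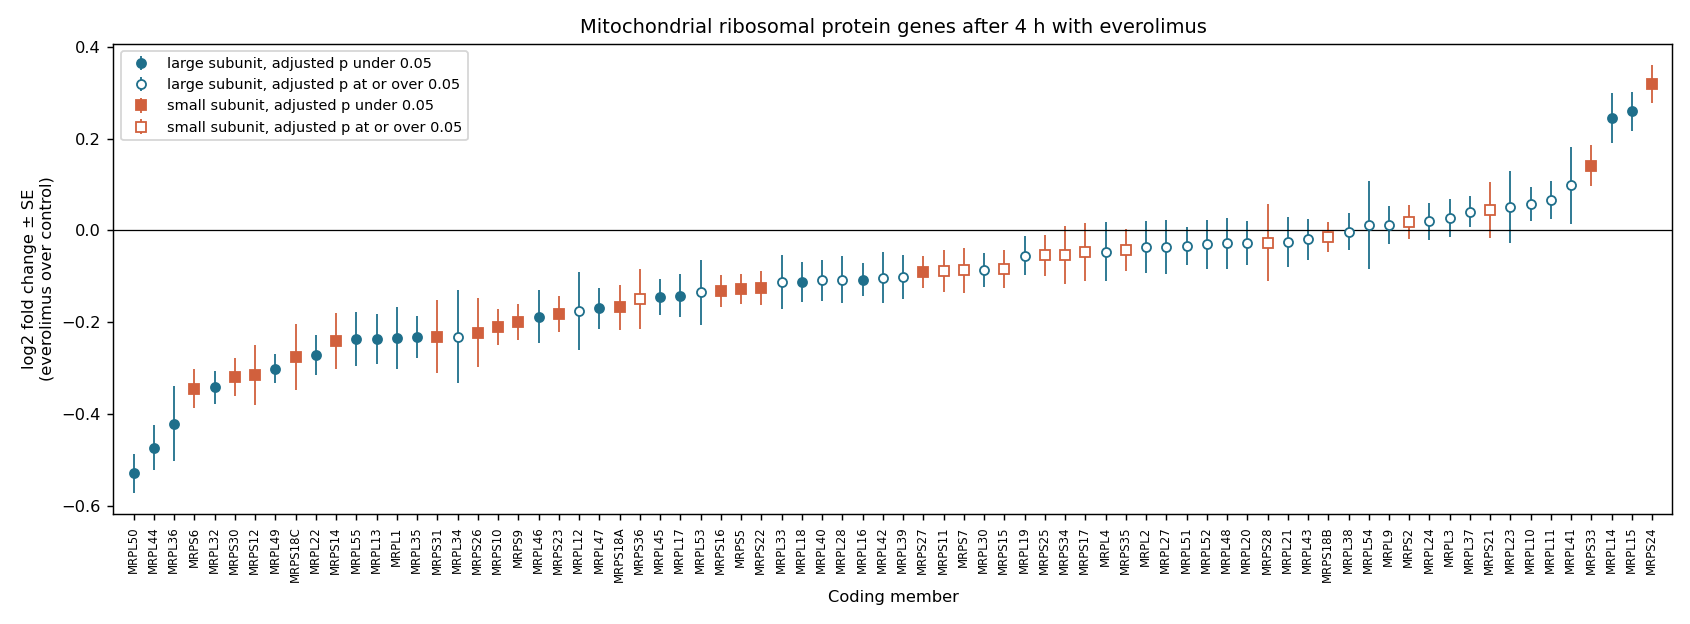
Log2 fold change (everolimus over control, vertical axis) with its standard error for each of the 76 coding members, ordered by size along the horizontal axis. Circles are large-subunit and squares small-subunit genes, filled where the adjusted p was under 0.05; filled symbols lie mostly below 0, where 31 members stand, and 4 lie above it.

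The 3 largest decreases were in large-subunit genes. MRPL50, a protein of the large subunit without a bacterial counterpart, stood at 444, 471, 463, 425 and 452 units with everolimus and at 640, 649, 683, 603, 667 and 664 units in controls. Every everolimus library lay below every control, and the log2 fold change was −0.53 ± 0.042 (SE; limma adjusted p = 9.04e-08). MRPL44, which sits near the exit of the peptide tunnel and carries a fold like that of RNA-cleaving enzymes, stood at 597, 628, 550, 532 and 574 units with everolimus and at 814, 819, 853, 744, 782 and 788 units in controls. The groups again did not overlap, and the change was −0.47 ± 0.049 (limma adjusted p = 1.30e-06). Mutations in MRPL44 are known to cause a cardiomyopathy of infants.

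Further large-subunit genes fell by less. MRPL32, whose protein is cut by the m-AAA protease of the inner membrane before it joins the ribosome, stood at 851, 885, 840, 820 and 839 units with everolimus and at 1137, 1054, 1059, 1024, 1054 and 1114 units in controls. MRPL49, another protein without a bacterial counterpart, stood at 1176, 1162, 1092, 1101 and 1122 units with everolimus and at 1386, 1423, 1425, 1402, 1343 and 1382 units in controls. In both genes the groups were apart, with changes of −0.34 ± 0.036 for MRPL32 and −0.30 ± 0.032 for MRPL49 (limma adjusted p = 1.86e-06 and 1.79e-06). MRPL36, the counterpart of the smallest bacterial large-subunit protein, stood at 528, 571, 461, 431 and 525 units with everolimus and at 791, 648, 738, 603, 635 and 629 units in controls. Its groups did not overlap, but its values spread more, and the change was −0.42 ± 0.082 (limma adjusted p = 5.57e-04).

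MRPL22, the counterpart of a bacterial protein that lines the peptide tunnel, stood at 408, 415, 397, 368 and 391 units with everolimus and at 493, 473, 503, 458, 459 and 481 units in controls. MRPL35 stood at 930, 995, 976, 877 and 918 units with everolimus and at 1041, 1163, 1070, 1040, 1176 and 1133 units in controls. Neither gene's groups overlapped, and both fell, by 0.27 ± 0.044 for MRPL22 and 0.23 ± 0.046 for MRPL35 on the log2 scale (limma adjusted p = 1.07e-04 and 5.97e-04). The other large-subunit members that fell were MRPL1, MRPL13, MRPL16, MRPL17, MRPL18, MRPL45, MRPL46, MRPL47 and MRPL55, with log2 fold changes of −0.24 to −0.11. In all, 16 of 47 large-subunit members fell (34.0%) and 2 rose (4.26%), against 27.4% and 27.8% of all tested genes.

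In the small subunit 15 of 29 members fell (51.7%) and 2 rose (6.90%), against 27.4% and 27.8% of all tested genes. The order of the subunits differed between the library sets. In set 1, 3 small-subunit (10.3%) and 8 large-subunit members (17%) were lower, against 19.3% of all tested genes. In set 2 these were 13 (44.8%) and 15 (31.9%), against 22.5%. MRPS6, the counterpart of a bacterial protein of the platform, stood at 739, 752, 718, 701 and 738 units with everolimus and at 890, 846, 987, 965, 935 and 944 units in controls. Its groups were apart, with a change of −0.34 ± 0.042 (limma adjusted p = 8.26e-06). MRPS30 carries a small-subunit symbol, although structures place its protein in the large subunit. It stood at 656, 680, 704, 682 and 702 units with everolimus and at 819, 852, 844, 813, 941 and 863 units in controls, again without overlap, and fell by 0.32 ± 0.042 on the log2 scale (limma adjusted p = 1.48e-05).

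MRPS10, the counterpart of a bacterial protein of the small subunit's head, stood at 1123, 1145, 1106, 1066 and 1118 units with everolimus and at 1313, 1323, 1287, 1161, 1316 and 1323 units in controls. Its groups were apart, although control 4 lay well below the other controls, and its change was −0.21 ± 0.039 (limma adjusted p = 3.75e-04). MRPS12, the counterpart of the bacterial protein at the decoding centre where streptomycin resistance arises, stood at 655, 661, 604, 580 and 687 units with everolimus and at 739, 698, 759, 862, 832 and 876 units in controls. All everolimus values lay below all controls and the change was −0.31 ± 0.065 (limma adjusted p = 8.29e-04). It was −0.15 within set 1 and −0.46 within set 2, and within set 1 it did not pass the test (limma adjusted p = 0.0579). MRPS12 was named for its role after its values had been seen. The remaining small-subunit members that fell were MRPS5, MRPS9, MRPS14, MRPS16, MRPS18A, MRPS18C, MRPS22, MRPS23, MRPS26, MRPS27 and MRPS31, with log2 fold changes of −0.28 to −0.09.

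The groups did not overlap, with everolimus lower, in 18 of the 76 members (23.7%) and in 17.6% of all tested genes. Those 18 were 58.1% of the 31 members that fell, and the like share was 64.1% of the 3469 tested genes that fell. Leaving out each library in turn kept 25 of the 31 in every fit. The 6 that were lost in at least 1 such fit were MRPL16, MRPL17, MRPL18, MRPS26, MRPS27 and MRPS31. All 6 were lost without everolimus 4, where 25 members were lower. Over all tested genes 3081 were lower in that fit.

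**Figure D2:**
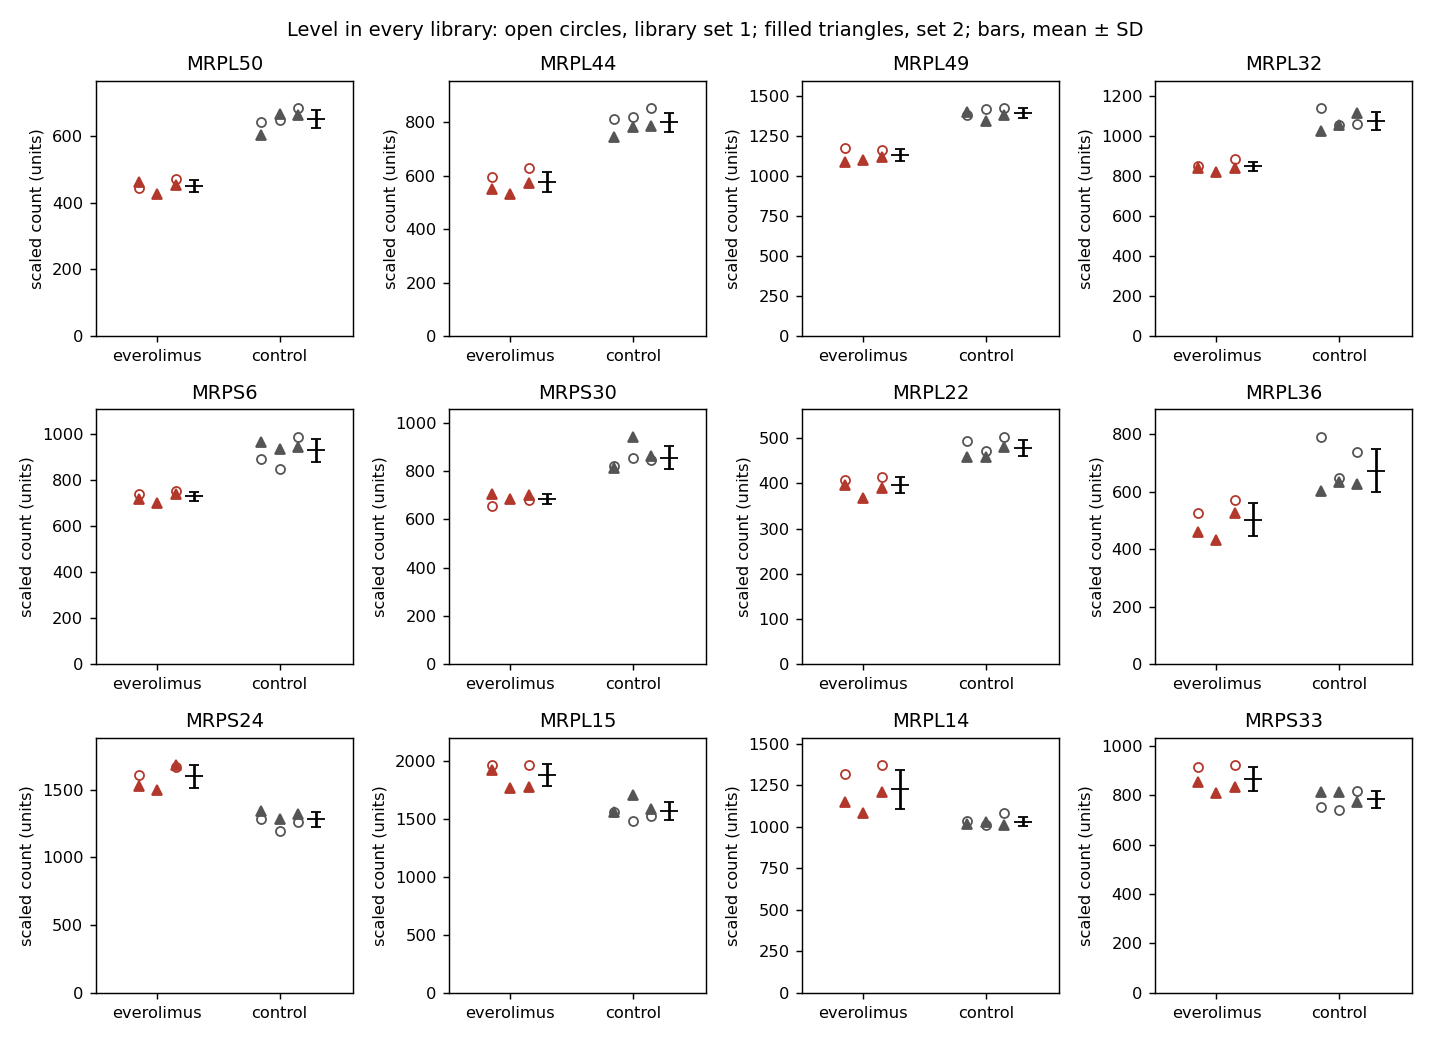
Level in units (vertical axis, from 0) of 12 members in each everolimus library (left, red) and each control library (right, grey); circles are set 1, triangles set 2 and the bars mean ± SD. The upper 8 genes are lower with everolimus, with MRPL50 at 425 to 471 units against 603 to 683, and the lowest row shows the 4 genes that were higher.

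The 4 members that rose were MRPS24 and MRPS33 of the small and MRPL14 and MRPL15 of the large subunit. MRPS24, the counterpart of a bacterial protein at the mRNA entry, stood at 1610, 1671, 1528, 1501 and 1681 units with everolimus and at 1283, 1192, 1260, 1343, 1284 and 1324 units in controls. MRPL15 stood at 1960, 1959, 1920, 1767 and 1773 units with everolimus and at 1558, 1480, 1520, 1556, 1704 and 1584 units in controls. In both genes every everolimus library lay above every control, with changes of 0.32 ± 0.041 for MRPS24 and 0.26 ± 0.043 for MRPL15 (limma adjusted p = 1.30e-05 and 1.30e-04). They were the 2 of 76 members (2.63%) with groups apart in this direction, against 20.3% of all tested genes.

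MRPL14, whose bacterial counterpart lies where the subunits meet, stood at 1316, 1370, 1150, 1082 and 1207 units with everolimus and at 1032, 1009, 1084, 1016, 1028 and 1013 units in controls. Everolimus 4, at 1082 units, lay just under control 3, at 1084 units, and the change was 0.24 ± 0.054 (limma adjusted p = 0.00142). MRPS33, a small-subunit protein without a bacterial counterpart, stood at 914, 921, 852, 808 and 832 units with everolimus and at 752, 739, 817, 814, 811 and 773 units in controls. Its groups overlapped, and its change of 0.14 ± 0.045 (limma adjusted p = 0.0158) stood at 0.26 within set 1 and at 0.06 within set 2 (limma adjusted p = 0.00547 and 0.492). MRPS33 lost its call when each library was divided by its total, when libraries were thinned to equal depth and with the replicate number as a block. MRPS24 overlaps the readthrough gene URGCP-MRPS24 in GENCODE v29, so reads may be shared between these.

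The gap between the subunits overlapped between the groups as a mean over members, and through control 1 alone as a median over members. Per library, the mean log2 level of large-subunit minus small-subunit members was 0.117, 0.138, 0.121, 0.125 and 0.153 with everolimus and 0.116, 0.119, 0.117, 0.136, 0.121 and 0.099 in controls. The ranges overlapped, the means were 0.131 ± 0.0147 and 0.118 ± 0.0119 (SD, n = 5 and 6), and the difference was 0.010 in set 1 and 0.015 in set 2. With MRPS18A and MRPS30 counted where structures place them, in the large subunit, the difference was −0.002. With the median over members in place of the mean, the gap was 0.233 ± 0.0233 with everolimus and 0.135 ± 0.0558 in controls (SD). Per library, this median gap was 0.203, 0.261, 0.226, 0.223 and 0.252 with everolimus and 0.232, 0.145, 0.145, 0.114, 0.110 and 0.064 in controls. Its ranges overlapped through control 1 alone, and the other controls lay below every everolimus library. Within set 2 the groups were apart. The difference of the median gap was 0.058 in set 1 and 0.137 in set 2. The median log2 fold change was −0.10 over the large-subunit and −0.125 over the small-subunit members. With the structural assignment 18 of 49 large-subunit (36.7%) and 13 of 27 small-subunit members (48.1%) fell, against 27.4% of all tested genes. No p is given for these summaries, since members are not replicates.

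The mean log2 level of the 76 coding members was 9.58, 9.63, 9.55, 9.47 and 9.58 with everolimus and 9.64, 9.61, 9.70, 9.67, 9.70 and 9.70 in controls. Everolimus 2 lay above control 2, so the groups overlapped on this scale. As a share of each library's total value the family took 0.416 ± 0.00879% with everolimus and 0.464 ± 0.00906% in controls (SD, n = 5 and 6). The ranges of this share, 0.403% to 0.425% with everolimus and 0.449% to 0.474% in controls, did not overlap. The total itself was higher in every everolimus library (15683481 to 16344369 units) than in every control (14932480 to 15410199 units), by 5.42% on average, while the summed value of the members averaged 66700 units with everolimus and 70578 units in controls, a difference of −5.50%. The share thus holds both the members' lower sum and the larger total, and the sums overlapped, at 63164 to 69388 units with everolimus and 67948 to 72399 units in controls. The mean log2 level over all tested genes was 8.71 with everolimus and 8.68 in controls. On this scale too everolimus 4 was the lowest of the 11 libraries, at 8.642, with control 4 next at 8.647.

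**Figure D3:**
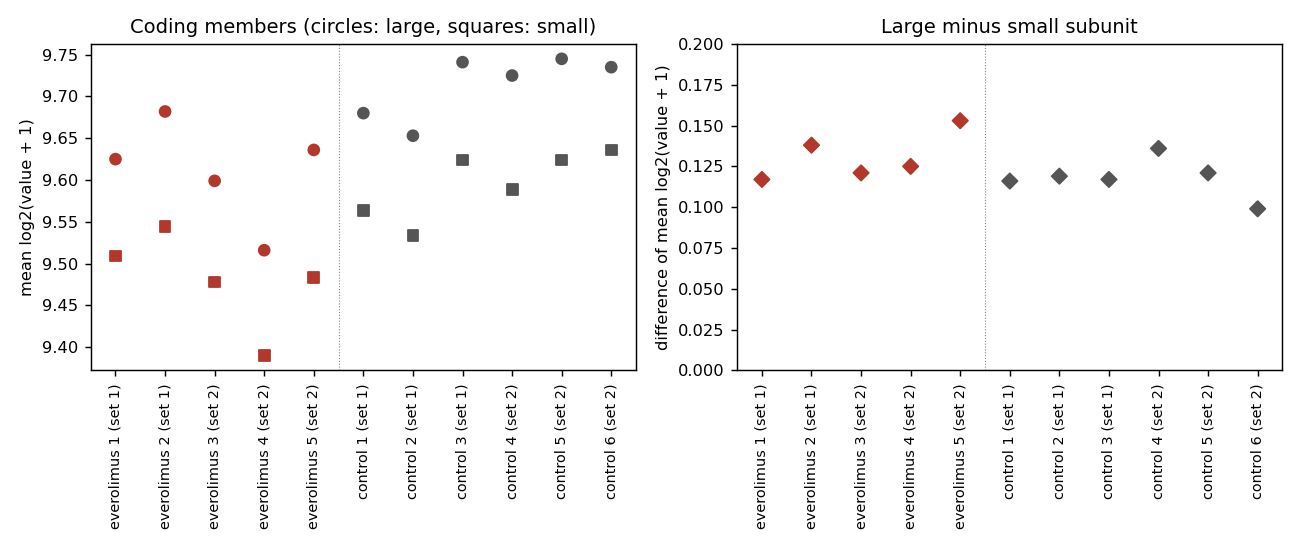
Left, mean log2(value + 1) of the large-subunit (circles) and small-subunit (squares) members in each everolimus (red) and control (grey) library; right, their difference, on an axis from 0. Everolimus 4 is lowest in both subunits, and the difference stays between 0.099 and 0.153 in all 11 libraries.

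The family was compared with all tested genes within each library set. In set 1, 11 members were lower (14.5%) and 6 were higher (7.89%), against 19.3% lower and 24.0% higher, 43.3% in all, among the tested genes. In set 2, 28 members were lower (36.8%) and 3 were higher (3.95%), against 22.5% lower and 21.1% higher, 43.7% in all, among the tested genes. The median change was −0.05 in set 1 and −0.14 in set 2, where the medians over all tested genes were 0.02 and −0.02. A change below 0 in both sets was found in 48 of the 76 members (63.2%) and in 41.5% of all tested genes, and 10 members passed the test as lower in each set on its own. In set 1 the share of members called lower was under that of all tested genes, and in set 2 it was above it.

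The members with the largest decreases had these changes within the sets. MRPL50 changed by −0.52 in set 1 and −0.53 in set 2, MRPL44 by −0.44 and −0.48, MRPL36 by −0.40 in each and MRPS30 by −0.33 and −0.32. MRPL32 changed by −0.32 in set 1 and −0.35 in set 2, MRPL49 by −0.27 and −0.32, and MRPS6 by −0.28 and −0.40. All of these passed the test in each set (limma). Of the members that rose, MRPS24 changed by 0.40 in set 1 and 0.25 in set 2, MRPL15 by 0.37 and 0.17 and MRPL14 by 0.37 and 0.17, again past the test in each set (limma).

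A test of the difference between the sets (limma interaction) called 0 of the 76 members, 14 of them at an unadjusted p under 0.05, with a smallest adjusted p of 0.785. It called 0 of all 12668 genes, 783 at an unadjusted p under 0.05. In all of those 14 members the change was lower in set 2 than in set 1. Set 1 holds 2 everolimus libraries and set 2 holds 3, so the lack of calls does not show that the sets agree.

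**Figure D4:**
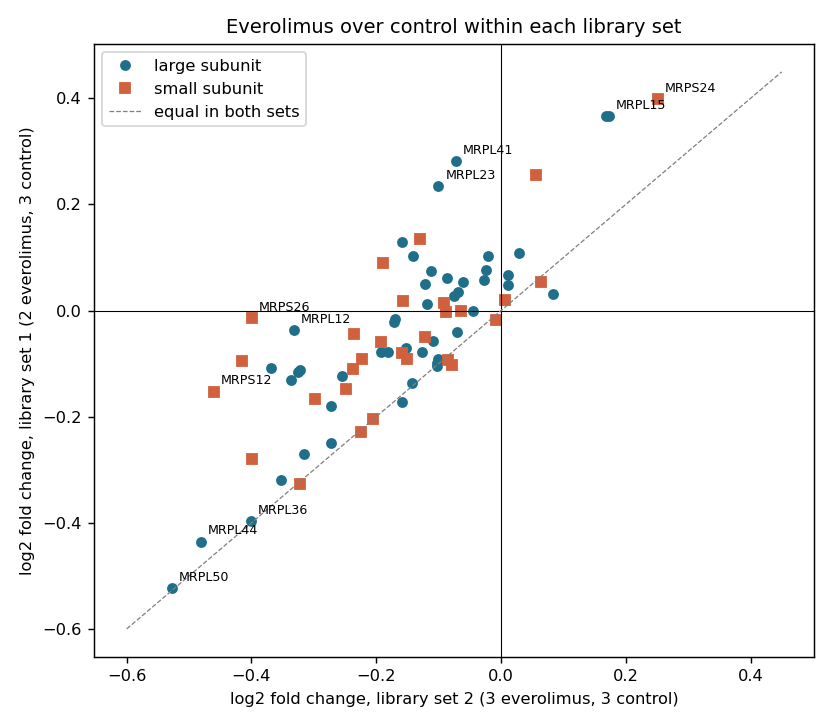
Log2 fold change (everolimus over control) within set 2 (horizontal axis) and within set 1 (vertical axis) for each coding member, with a dashed line where both are equal. MRPL50 and MRPL44 lie low in both sets, while MRPL12 and MRPS26 are low in set 2 and near 0 in set 1.

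MRPL12, the counterpart of the bacterial stalk protein, is also known to bind the mitochondrial RNA polymerase POLRMT. It stood at 1039, 1078, 1120, 1076 and 1189 units with everolimus and at 1101, 1056, 1100, 1455, 1425 and 1378 units in controls. Controls 4 to 6 stood apart above controls 1 to 3, which lay among the everolimus libraries. Over all libraries the change was −0.18 ± 0.085 (limma adjusted p = 0.0962), within set 1 it was −0.04 and within set 2 −0.33 (limma adjusted p = 4.59e-04 within set 2). With the library set as a covariate MRPL12 passed the test at −0.20 (limma adjusted p = 0.00352), as it did without control 2 (−0.22; limma adjusted p = 0.0308), with each library divided by its total (−0.25; limma adjusted p = 0.0206) and after thinning (−0.22; limma adjusted p = 0.0291). MRPL41 and MRPL23 went the other way in set 1, with changes of 0.28 and 0.24 there, and had −0.07 and −0.10 in set 2.

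The paralogs of the MRPS18 family, which share a bacterial ancestor and differ in where they sit in the ribosome, did not all pass the test. MRPS18C stood at 334, 352, 316, 276 and 300 units with everolimus and at 372, 389, 341, 373, 376 and 444 units in controls, a change of −0.28 ± 0.072 (limma adjusted p = 0.00468). MRPS18A stood at 396, 425, 386, 379 and 376 units with everolimus and at 416, 431, 465, 467, 455 and 413 units in controls, a change of −0.17 ± 0.050 (limma adjusted p = 0.0104). The groups of both genes overlapped, and in set 1 alone neither passed the test. MRPS18B stood at 1001, 1003, 1012, 944 and 998 units with everolimus and at 978, 1027, 1038, 995, 1005 and 971 units in controls. Its change was −0.02 ± 0.033 (limma adjusted p = 0.717), it passed the test at −0.09 when each library was divided by its total, and the differences between the paralogs were not tested.

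Levels differed widely within the family, both in units and per kilobase of transcript (GENCODE v29 lengths). Per kilobase, the members spanned 120 to 2140 units in controls, with a median of 638, and the median was 665 over large-subunit and 543 over small-subunit members. MRPL33 had 1983 units per kilobase with everolimus and 2140 in controls, and MRPS24 had 2260 with everolimus and 1812 in controls. The lowest was MRPL42, with 112 units per kilobase with everolimus and 120 in controls. These lengths are of the annotated transcript, up to 8.25 kb for MRPL42, and the isoform present in these cells is not known. Across members, the log2 fold change had a Spearman correlation of 0.27 with the mean level and −0.20 with the length (n = 76 genes that share all libraries, a description).

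The members with most reads were MRPL3, MRPL37 and MRPS16. MRPL3 stood at 2805, 2768, 2896, 2785 and 2693 units with everolimus and at 2492, 2767, 2672, 2696, 2967 and 2852 units in controls. MRPL37 stood at 2325, 2487, 2323, 2458 and 2456 units with everolimus and at 2266, 2218, 2403, 2426, 2400 and 2351 units in controls. Both overlapped between groups, with changes of 0.03 and 0.04 (limma adjusted p = 0.608 and 0.338). MRPS16, the counterpart of a bacterial protein needed to assemble the small subunit, stood at 1859, 1896, 1768, 1768 and 1851 units with everolimus and at 1997, 1858, 2017, 2026, 2066 and 2063 units in controls. Control 2 lay among the everolimus libraries and the other controls above them, a change of −0.13 ± 0.035 (limma adjusted p = 0.00503) that did not pass the test within set 1.

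Those with fewest reads were MRPS14, MRPS31 and MRPS36. MRPS14 stood at 272, 284, 284, 247 and 259 units with everolimus and at 327, 291, 320, 310, 301 and 363 units in controls. Its groups did not overlap and it fell by 0.24 ± 0.062 on the log2 scale (limma adjusted p = 0.00418). Within set 1 its change was −0.17 and did not pass the test (limma adjusted p = 0.123). MRPS31 stood at 208, 196, 209, 176 and 201 units with everolimus and at 222, 229, 261, 191, 237 and 261 units in controls. Its change of −0.23 ± 0.080 (limma adjusted p = 0.0240) lost its call without control 3, without control 6 or without everolimus 4. MRPS31 changed by −0.23 in set 1 and −0.22 in set 2 and passed the test in neither (limma adjusted p = 0.0784 and 0.134). MRPS36 is now held to be a subunit of the α-ketoglutarate dehydrogenase complex and not of the ribosome. By its symbol it was counted with the small subunit throughout, also under the structural assignment. It stood at 206, 222, 220, 192 and 188 units with everolimus and at 210, 212, 241, 236, 221 and 250 units in controls, a change of −0.15 ± 0.066 (limma adjusted p = 0.0676) that passed the test under several alternatives, among them quantile normalization (limma adjusted p = 0.0283).

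The family was also divided by symbol number, as a rough guide to whether the protein has a bacterial counterpart. Symbols up to MRPL36 and MRPS21, and MRPS24, were taken as having one, except MRPS18A and MRPS18B. All others, MRPS28 and MRPS36 among them, were taken as without, and single proteins were not checked. Of 43 members taken as having one, 17 fell (39.5%) and 3 rose (6.98%), with a median change of −0.09. Of the other 33, 14 fell (42.4%) and 1 rose (3.03%), with a median of −0.10. Among all tested genes 27.4% fell and 27.8% rose. This grouping was chosen after the values had been seen. Across the 11 libraries, 53 members correlated above 0.5 with the mean log2 level of the other members, with a median r of 0.71. The 9 members with an r below 0 included the 4 that rose, with MRPS24 lowest at −0.57. Correlations here pool both groups, so they hold the group difference and any shift of a whole library, and partly restate the calls. The like share over all tested genes was not taken. Outside the family, the genes most like its mean were UBAC2 (r = 0.978), NDUFS3 (0.966), C5orf39 (0.963), JAGN1 (0.960) and RNF7 (0.958), over the same 11 libraries and as a description.

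Some members share exons or a start region with another gene. The members' exons overlapped those of another gene in GENCODE v29 in 34 cases, and the use of strand in the authors' counting is not given in the sources used here. SLC5A3, a myo-inositol transporter gene that overlaps MRPS6, averaged 874 ± 24.9 units with everolimus and 884 ± 60.6 in controls (SD, n = 5 and 6), a change of −0.01 (limma adjusted p = 0.835). The following genes also overlap exons of the member named with them. FAU and SYVN1, with MRPL49, changed by 0.07 and 0.09 (limma adjusted p = 0.185 and 0.102), and ACTL6A, with MRPL47, by 0.02 (limma adjusted p = 0.650). PSMA2, a proteasome gene, with MRPL32, changed by −0.16 (limma adjusted p = 0.0266). SARS2, the mitochondrial seryl-tRNA synthetase gene, with MRPS12, changed by −0.15 (limma adjusted p = 0.0307). DNAJC9, with MRPS16, rose by 0.15 (limma adjusted p = 0.00601). A gene on the opposite strand started within 1000 bases of 21 of the 67 members with a promoter entry. In 8 such pairs with a tested neighbour the member had fallen, and in 2 of them, with PSMA2 and SARS2, the neighbour had fallen too.

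Ribosomal proteins whose symbols lack the prefix included the strongest decrease. PTCD3, a pentatricopeptide repeat protein of the small subunit, stood at 971, 993, 1033, 933 and 972 units with everolimus and at 1404, 1450, 1486, 1463, 1564 and 1504 units in controls. The groups were far apart and the change was −0.59 ± 0.036 (limma adjusted p = 5.13e-09), with −0.56 in set 1 and −0.63 in set 2. MRP63, now named MRPL57, stood at 321, 351, 337, 309 and 392 units with everolimus and at 408, 426, 453, 497, 463 and 451 units in controls, a change of −0.40 ± 0.065 (limma adjusted p = 1.24e-04). CHCHD1 fell too (−0.36; limma adjusted p = 9.85e-04), with −0.14 in set 1 and −0.51 in set 2, as did ICT1, now MRPL58, a peptidyl-tRNA hydrolase built into the large subunit (−0.13; limma adjusted p = 0.0201). The call of ICT1 was lost without everolimus 3, without everolimus 4 and within each set. The remaining 3 of these 7 genes, DAP3, AURKAIP1 and GADD45GIP1, had changes of −0.02, −0.12 and 0.03 and did not pass the test.

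Over the 5 lists beside the family, which hold those 7 genes and also genes for mitochondrial DNA and nuclear regulators, 30 of 85 genes were lower (35.3%) and 10 were higher (11.8%). Among all tested genes these shares were 27.4% and 27.8%. Of 25 genes for assembly and rRNA modification, 8 fell (32%) and 3 rose (12%). NSUN4, a methyltransferase of the small-subunit rRNA, averaged 479 ± 17.2 units with everolimus and 680 ± 27.1 in controls (SD, n = 5 and 6), a change of −0.51 (limma adjusted p = 8.36e-08). C4orf14, now NOA1, a GTPase of small-subunit assembly, fell by 0.27 on the log2 scale (limma adjusted p = 8.11e-04). TFB1M, which dimethylates the small-subunit rRNA, averaged 291 ± 21.2 units with everolimus and 236 ± 12.8 in controls, a change of 0.30 (limma adjusted p = 5.90e-04) that did not pass the test within set 2. C18orf22, now RBFA, which matures the same rRNA, rose by 0.26 (limma adjusted p = 8.08e-05).

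Of 18 genes listed as translation factors or related genes, 6 fell (33.3%) and 1 rose (5.56%), against 27.4% and 27.8% of all tested genes. The list is mixed, since CCDC56 (now COA3), OXA1L, PTCD1 and LRPPRC are not translation factors in the strict sense. The genes that fell were MTRF1, C12orf65, CCDC56, PTCD1, MTIF3 and OXA1L. TUFM, TSFM, GFM1, GFM2 and MTIF2 did not pass the test. MTRF1, a release factor, averaged 125 ± 10.2 units with everolimus and 189 ± 11.1 in controls (SD, n = 5 and 6), a change of −0.59 (limma adjusted p = 4.50e-06). C12orf65, now MTRFR, which rescues stalled ribosomes, fell by 0.39 on the log2 scale (limma adjusted p = 9.71e-06), and MTFMT, which formylates the initiator tRNA, rose by 0.24 (limma adjusted p = 0.0121), though not past the threshold within set 2. Of 23 genes for mitochondrial transcription, DNA and RNA processing, 9 fell (39.1%) and 4 rose (17.4%). MTERFD3, of the family of mitochondrial termination factors, averaged 113 ± 11.2 units with everolimus and 206 ± 23.8 in controls, a change of −0.86 (limma adjusted p = 1.78e-06). RG9MTD1, now TRMT10C, a subunit of mitochondrial RNase P, changed by −0.37 (limma adjusted p = 4.05e-05). The mitochondrial DNA helicase gene C10orf2, now TWNK, rose by 0.42 and the polymerase gene POLG by 0.21 (limma adjusted p = 9.54e-07 and 2.35e-04).

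Among 12 nuclear regulators of mitochondrial genes, 3 fell (25%) and 2 rose (16.7%), against 27.4% and 27.8% of all tested genes. PPARGC1A, a coactivator of mitochondrial biogenesis, stood at 48.4, 70.2, 56.4, 34.8 and 80.7 units with everolimus and at 173, 140, 214, 167, 112 and 192 units in controls. The groups were apart, with a change of −1.53 ± 0.20 (limma adjusted p = 1.58e-05). NRF1, a factor that binds promoters of many mitochondrial genes, changed by −0.38 ± 0.056 (limma adjusted p = 4.54e-05). MYC, which is known to raise ribosome genes of several kinds, averaged 1972 ± 142 units with everolimus and 935 ± 73.6 in controls (SD, n = 5 and 6), a change of 1.08 (limma adjusted p = 1.39e-09). GABPB1, a subunit of GABP, rose by 0.37 (limma adjusted p = 1.05e-05), while its partner GABPA (0.12; limma adjusted p = 0.216) and YY1 (−0.03; limma adjusted p = 0.571) did not pass the test.

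The motifs shown in the promoter sequences above were set beside these calls. The YY1 core AAGATGG stood in 14 of 29 windows of members that fell (48.3%), in 8 of 35 of members that did not pass the test (22.9%) and in 7.66% of those of all tested genes. After the start on the gene's strand it stood in 8 of 29, in 7 of 35 and in 1 of the 3 members that rose and had an entry, MRPS24. The ETS motif stood in 11 of 29 members that fell (37.9%) and in 16 of 35 that did not pass (45.7%). The NRF1 motif GCGCANGCGC stood in 7 of 67 member windows (10.4%) and in 11.8% of those of the tested genes, and the E-box CACGTG, which MYC binds, in 6 (8.96%) and 10.3%. GGGCGG, the SP1 motif, stood in 61.2% of member windows and 70.7% of those of the tested genes, and the CCAAT box in 29.9% and 36.9%. By call, the SP1 motif stood in 21 of 29 members that fell (72.4%) and in 17 of 35 that did not pass (48.6%). The CCAAT box stood in 12 (41.4%) and 8 (22.9%) of these, the E-box in 5 (17.2%) and 1 (2.86%). For the NRF1 motif these were 4 (13.8%) and 1 (2.86%). Of the 3 members that rose and had an entry, 3 held the SP1 motif and 2 the NRF1 motif. The ETS motif and the YY1 core stood in 1 each, and the CCAAT box and the E-box in 0. Each motif was searched on its own, so matches may overlap, and the counts by call are a description with no test.

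**Figure D5:**
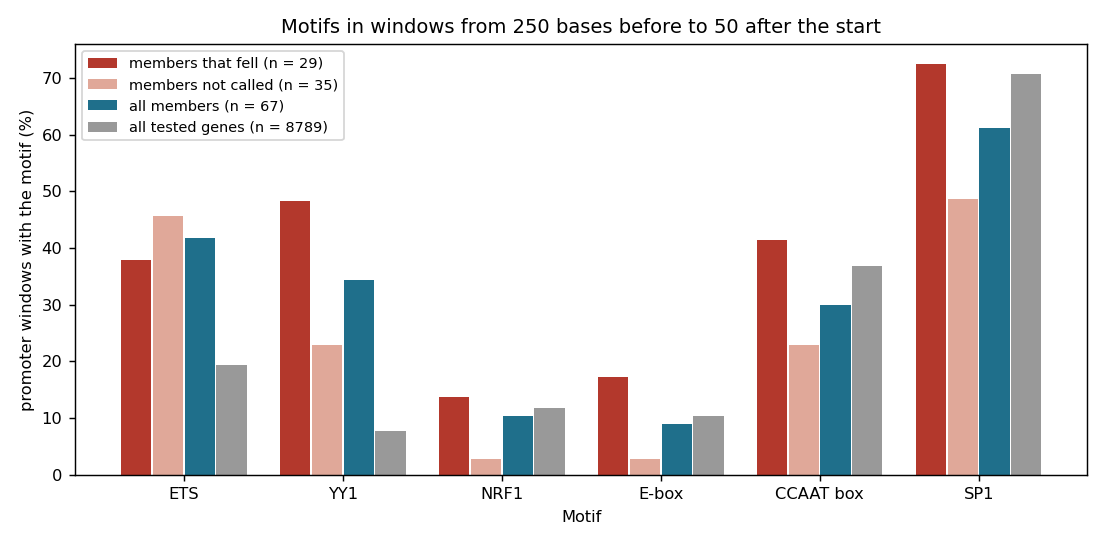
Share of promoter windows (vertical axis, percent, from 0) that hold each of 6 motifs, for members that fell (n = 29), members that did not pass the test (n = 35), all members (n = 67) and all tested genes (n = 8789). The ETS and YY1 motifs stand in a larger share of member windows (41.8% and 34.3%) than of all tested genes (19.3% and 7.66%).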

How the data were processed

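Per the labels' protocols, extraction used the Qiagen RNeasy kit, and TruSeq stranded mRNA reagents served for the libraries. The deposited values are a signal that the authors had already scaled. The submitters' processing notes name hg19, Picard 1.64, SAMtools and RSEM, without roles. Which aligner and annotation were used, and whether counting used strand, is not given in the sources used here. Each library looked like estimated counts multiplied by 1 factor: below 200 reads, 89.4% to 94.0% of its values were whole within 0.1 read. Since the others were fractional, no count model was used. Depth was estimated from the value of 1 read, and intervals or floors (3 reads) cover counting error only. In 15 pairs of controls and 10 pairs of everolimus libraries, 0 were identical.

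limma 3.58.1 in R 4.3.3 was run with an intensity trend on log2(value + 1), a pseudocount that understates changes of low genes, without further scaling. Genes had to reach 10 units in 5 libraries. P-values are two-sided and Benjamini-Hochberg adjusted over every tested gene (threshold 0.05). The test was tested on simulated data. The error of a log2 fold change is its SE.

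The members, the gene lists and the tests were chosen with earlier results of these data known. Values in every library are given for up to 10 members with the smallest adjusted p in each direction, the 3 with the highest and 3 with the lowest levels, the MRPS18 paralogs and MRPL12. In other lists the rule took the 2 genes with the smallest p per direction. Other genes were named after their values were seen. GENCODE v29 gave transcript lengths and overlapping genes by name, and RefSeq (GRCh38.p14) gave promoters; coordinates are of GRCh38.p14, not of the authors' build. No member on chromosome 8 is shown as sequence. Replicate numbers do not pair the samples. Alternatives were other scalings, pseudocounts, filters and variance priors, the replicate block, the library set, leaving out each library and, chosen after seeing the data, thinning to equal depth.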

Additional observations from a re-analysis of the deposited data

Results flagged for a closer look

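Chance alone sets 1 sample apart in about 1 in 20 groups of this size, and the named members gave 4 such cases. MRPS10 stood at 1161 units in control 4, with the other controls at 1287 to 1323 units. MRPL14 stood at 1084 units in control 3, with the other controls at 1009 to 1032 units. MRPS16 stood at 1858 units in control 2, with the other controls at 1997 to 2066 units. MRPS18B stood at 943.8 units in everolimus 4, with the other everolimus libraries at 998.1 to 1012 units.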

How the results depend on the processing

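No named change that passed the test turned its direction under any alternative, and the medians over the members stayed below 0. The median over all tested genes, −0.0081, crossed 0 in set 1 (0.0157) and without everolimus 4 (0.0078), and the uncalled changes of MRPL3 (−0.0001 to 0.0502) and MRPS18B (−0.0246 to 0.0023) crossed 0 when a library was left out; MRPL3 and MRPL37 stood at −0.0492 and −0.0359 under total scaling. Dividing each library by its total moved the median over all tested genes to −0.0841, with fewer genes higher than lower (2637 and 4886) where 3528 and 3469 were called without it. Under it 49 members were lower, 27 of the large subunit, and 46 genes of the other lists, with medians of −0.1783 (all members), −0.1776 (large) and −0.2010 (small). Quantile normalization gave 40 lower members, the 31 among them, with 4035 of all genes lower, 3246 higher and an all-gene median of −0.0367. Thinning to equal depth, chosen after seeing the data, gave 41, with 3917 of all genes lower, 2760 higher and an all-gene median of −0.05. Both thus moved all genes downward as well as the members. In set 1 alone 11 members were lower (8 large, 3 small) and 4 large-subunit members higher, with medians of −0.0467, −0.0366 (large) and −0.0593 (small). In set 2, 6 genes of the other lists were higher. A single small-subunit member was higher (1 in place of 2) under the replicate block, total scaling, thinning and in set 2. The gap between subunits changed by −0.0025 with the structural assignment and by 0.0979 with medians. Leaving out each library gave 25 to 36 lower members (36 without control 2) and 4 higher. Over all genes these fits gave 3081 to 3601 lower and 3245 to 3519 higher.

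With the replicate number as a block, 28 members were lower and 3 higher, and 2993 of all genes lower and 3278 higher. Everolimus and control libraries of the same number deviated with correlations of −0.508 to 0.603, and 1 of 5 everolimus libraries correlated best with its own number, so the numbers were not taken to pair the samples. Among named genes, 1017 alternatives left the call as it was, 20 ended it and 13 added it. Reads shared with overlapping genes limit the members that have such neighbours, and depth limits MRPL42P5.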
